A study of Mus musculus with 10 samples.

Results

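Oxidative phosphorylation genes were followed in RENCA tumours, a mouse kidney cancer line grown under the skin of female Balb/c mice. Members were taken by symbol from the table of raw counts: the Nduf a, b, c, s and v genes, Cox4 to Cox8 genes, Uqcr, Atp5 and the 4 Sdh genes, and mt- genes whose symbols name a protein of the respiratory chain or ATP synthase. After 4 pseudogene symbols ending in -ps were dropped, 92 of the 18603 rows were members, 85 encoded in the nucleus and 7 in the mitochondrial genome (mt-Nd1, mt-Nd2, mt-Nd4, mt-Nd5, mt-Nd6, mt-Co1 and mt-Cytb). There was no row for mt-Nd3, mt-Nd4l, mt-Co2, mt-Co3, mt-Atp6 or mt-Atp8. Shares, ratios and rankings of the mt- members below therefore cover only a part of the mitochondrial protein genes. A filter on low counts left 89 of them among the 15883 genes tested, which were 82 nuclear and 7 mt- members; Cox6b2, Cox8b and Ndufb4c fell below it. Injection of the tumours began once they measured 100 to 150 mm3. PBS tumours received the vehicle alone. SLR14 tumours received lipid nanoparticles that carry SLR14, a short hairpin RNA made to activate the sensor RIG-I, in 50 µL of PBS. Each tumour was injected 3 times, 48 hours apart, and taken 24 hours after the last injection, with 5 mice in each group. No sample received empty particles, so the effects of the RNA and of its carrier cannot be told apart.

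Mitochondria make ATP by passing electrons from NADH and succinate through complexes I to IV to oxygen, and complex V, the ATP synthase, uses the proton gradient that complexes I, III and IV build. Most subunits are nuclear genes whose products are imported, while the mitochondrial genome is transcribed from both strands as long precursors that are cut into single messengers. Complex II alone is made of nuclear gene products only. Kidney tubules are rich in these complexes, and kidney cancers are known for altered use of them. RNA of the whole tumour was measured, so fewer cells of a type and less RNA per cell cannot be told apart. Ribosomal RNA was depleted and messengers were then captured by their poly(A) tails. That tail is short on most mt- messengers, so mt- levels and nuclear levels pass through the capture differently.

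No member passed the test between SLR14 and PBS tumours. In edgeR's quasi-likelihood test 0 of 89 members had an adjusted p under 0.05, where 0.963% of all tested genes did, and in DESeq2 0 of 92 did against 2.19% of all genes. At an unadjusted p under 0.05, 1 member was higher in SLR14 tumours (mt-Nd6) against 5.4% of all genes, and 5 were lower (Ndufa4, Ndufa9, Atp5if1, Ndufb3 and Uqcrc2) against 5.43%. The count of lower members is near its background, and that of higher members is below it. The lowest adjusted p of a member was 0.314, for Ndufa4. The fitted 95% interval lay inside a 1.5-fold change in either direction for 58 of the 89 members, all of them nuclear, and inside a 2-fold change for 84. Over all tested genes these shares were 59.3% and 84.6%. A missed threshold does not show that the groups were alike.

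The signs of the small differences split by genome. Of the 82 nuclear members 76 had a negative log2 fold change (SLR14 over PBS) and 6 a positive one, with a median of −0.18. All 7 mt- members were positive, with a median of 0.28, while the median of all tested genes was −0.01. Both medians rested largely on tumour PBS 5. Without it the nuclear median was −0.02 with 31 of 82 positive, the mt- median was 0.06 with 4 of 7 positive, and no member was called. The plot of fold changes by complex shows both fits.

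**Figure D1:**
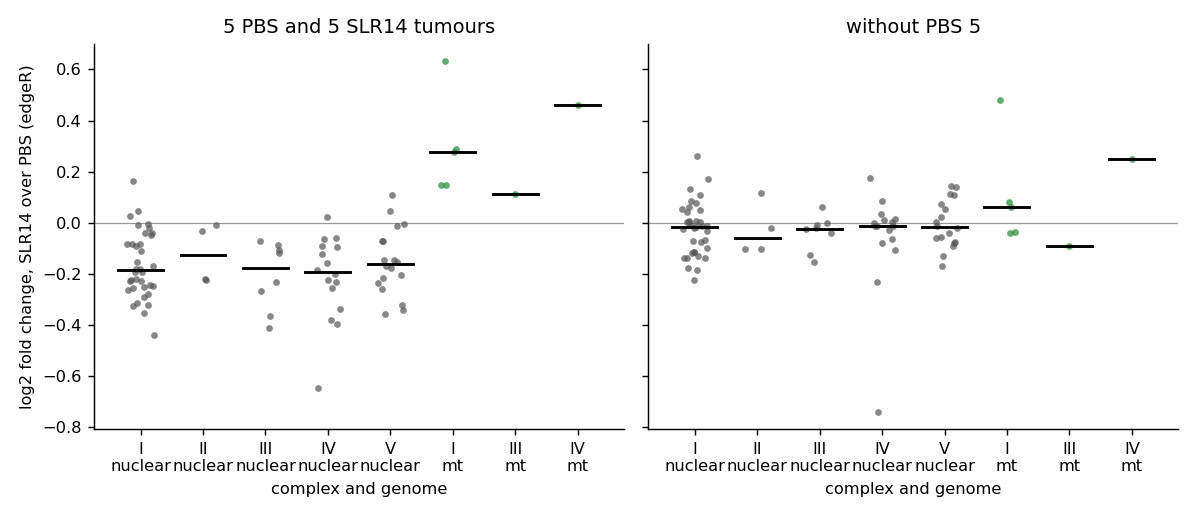
Log2 fold change of SLR14 over PBS from edgeR for each tested member (points), by complex and genome (nuclear in grey, mt- in green), with all 10 tumours on the left and without PBS 5 on the right; black bars are medians. With all tumours the complex medians of nuclear members lie between −0.19 and −0.13, and without PBS 5 between −0.06 and −0.01; no point in the left panel passed the adjusted threshold.

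Tumour PBS 5 stood apart from the other 9. It had the highest level of the 10 tumours for 72 of the 82 nuclear members (87.8%), against 28.4% of all tested genes, and the lowest level for all 7 mt- members, against 28.6% of all genes. Setting each gene's median over the 10 tumours to 1, nuclear members had a median level of 1.54 in PBS 5 and between 0.949 and 1.03 in each of the other tumours. Members of the mt- set were at 0.376 in PBS 5, 0.652 in PBS 3 and between 0.798 and 1.34 elsewhere. The nuclear members took 1.22% of all counts in PBS 5 and 0.723 to 0.825% in the others. Counts of nuclear members per count of mt- members were 1.73, 1.56, 2.95, 1.69 and 7.56 in PBS 1 to 5 and 1.38, 1.37, 1.92, 2.24 and 1.86 in SLR14 1 to 5. The PBS and SLR14 groups overlapped in this ratio, with PBS 5 far above every other tumour.

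**Figure D2:**
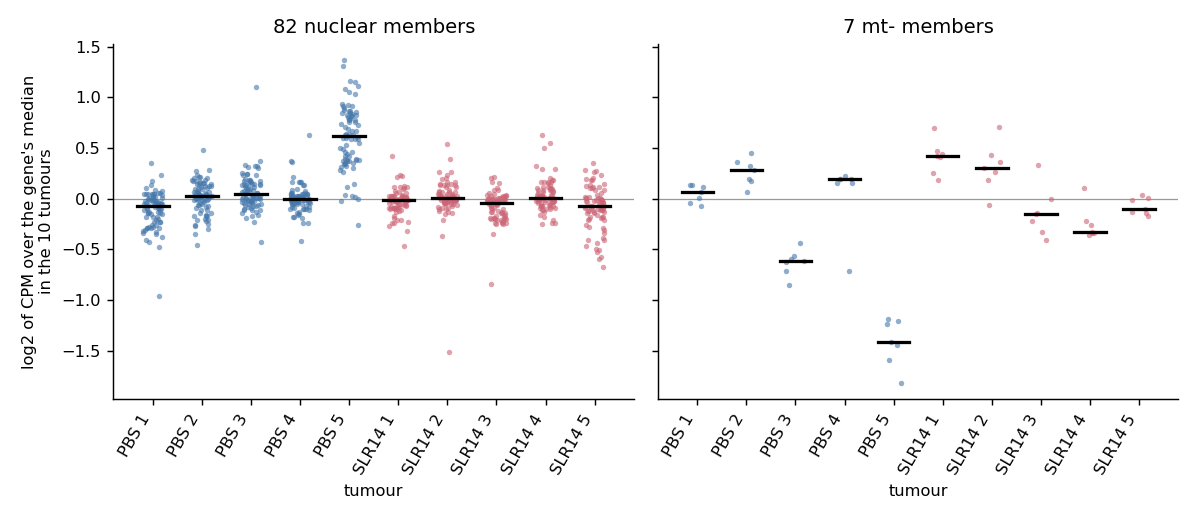
Log2 of the CPM, the count scaled to library size, of each tested member over that gene's median in the 10 tumours, for 82 nuclear members (left) and 7 mt- members (right); points are genes and black bars medians, PBS in blue and SLR14 in red. Nuclear members cluster near 0 except in PBS 5, where their median is 1.54 times the gene's usual level, and mt- members are lowest in PBS 5 and next lowest in PBS 3.

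All 5 complexes shared the pattern in PBS 5. The median ratio of PBS 5 to the mean of the other PBS tumours was 1.54 for the nuclear members of complex I, 1.46 for complex II, 1.73 for complex III, 1.6 for complex IV and 1.54 for complex V, and it was 0.378 for the mt- members. Ratios of tested nuclear members ran from Cox4i2 at 0.69 to Cox7a1 at 2.75. The 10 nuclear members that did not peak in PBS 5 were Ndufa10, Ndufa6, Ndufb1, Ndufv3, Sdha, Cox4i2, Cox8a, Ndufa4l2, Atp5f1a and Atp5f1d, named after their values were seen. Gene length moved with it: over all tested genes the median ratio was 1.32 for genes with under 1000 bp of exon, 1.29 from 1000 to 2000 bp, 1.09 from 2000 to 4000 bp and 0.836 for those of 4000 bp or more. Nuclear members lay above all genes in each length class, at 1.66, 1.6, 1.46 and 1.29, where the last class holds 10 members. Other gene lists in PBS 5 stood at 1.5 for the mitochondrial ribosome, 1.49 for the cytosolic ribosome, 1.12 for the tricarboxylic acid cycle and 0.749 for glycolysis. Summed erythroid markers were also highest there, at 173 CPM. The other PBS tumours were at 54.3 to 63.9 CPM and the SLR14 tumours at 20.9 to 98.3 CPM. Hbb-bs alone gave 110 CPM of the sum in PBS 5, and only 2 of the 6 measured markers were highest in that tumour. All 6 were above the mean of the other PBS tumours, at ratios of 1.23 to 3.99 with a median of 2.6. None of the 6 was at 0 in all tumours. The 14 skeletal muscle markers were also all over 1 in this ratio, with a median of 1.73, and 3 of them were highest in PBS 5. What part length, RNA quality, blood or muscle had in these values was not tested.

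**Figure D3:**
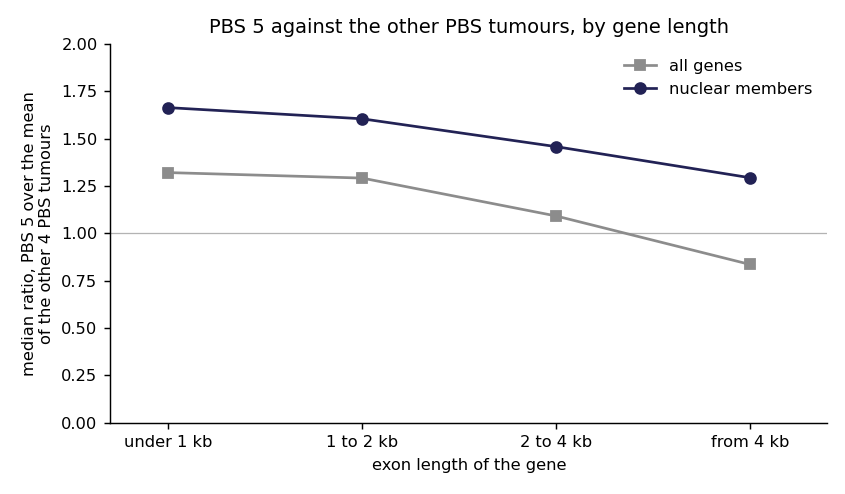
Median ratio of the CPM in PBS 5 to the mean of the other 4 PBS tumours (vertical axis), by exon length of the gene (horizontal axis), for all tested genes (grey squares) and nuclear members (dark circles). Both lines fall with length, and the members lie above all genes in every class, at 1.66 against 1.32 under 1 kb and 1.29 against 0.836 from 4 kb.

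The 250 bases before the start sites of nuclear members were read on both strands for the core motifs of 3 factors known from respiratory chain promoters. RefSeq promoters on GRCm38.p6 matched 69 of the 85 nuclear members. The NRF1 core GCGCATGC was present in 8 of them (11.6%) and in 2.56% of 27025 genes with a promoter of that length. An ETS core, CCGGAAG, as bound by NRF2 (GABP), was in 12 (17.4%) against 7.83% of all genes, and the YY1 core AAGATGGC was in 1 (1.45%) against 1.83%. At least 1 of the 3 was found in 18 members (26.1%) and in 11.5% of all genes. The 27025 genes were not limited to genes tested in these tumours, and base composition was not matched. A gene with several start sites counted if any of them held the motif. Whether these shares are particular to the members was therefore not tested. A match of letters is a description, not a bound site. The stretches below stand for the members with a match, 1 for each complex where the match lay outside annotated exons, each cut to the longest run that no annotated exon covers. Their ratios of PBS 5 to the other PBS tumours, which were over 1 for 77 of the 82 tested nuclear members with a median of 1.55, were 1.81 for Ndufb6 (complex I), 1.87 for Uqcr11 (complex III), 1.59 for Cox6a1 (complex IV) and 2.11 for Atp5f1e (complex V). Members with and without a motif were not compared in PBS 5, and a link between motifs and these ratios was not tested. Capitals mark the ETS core in Uqcr11, the same core read on the other strand in Ndufb6 and Atp5f1e, and in Cox6a1 an NRF1 core that is found on both strands with an overlap. All 4 lie on the minus strand of GRCm38.p6 and are given 5′ to 3′ in the direction of the gene: Ndufb6 at chr4:40279422-40279671, Uqcr11 at chr10:80406831-80407071, Cox6a1 at chr5:115348982-115349129 and Atp5f1e at chr2:174464106-174464351.
Ndufb6: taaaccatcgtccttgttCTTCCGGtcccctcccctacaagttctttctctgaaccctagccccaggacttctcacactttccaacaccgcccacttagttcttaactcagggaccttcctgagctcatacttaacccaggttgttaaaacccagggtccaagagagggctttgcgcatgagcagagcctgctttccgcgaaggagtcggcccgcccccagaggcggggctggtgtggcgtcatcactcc
Uqcr11: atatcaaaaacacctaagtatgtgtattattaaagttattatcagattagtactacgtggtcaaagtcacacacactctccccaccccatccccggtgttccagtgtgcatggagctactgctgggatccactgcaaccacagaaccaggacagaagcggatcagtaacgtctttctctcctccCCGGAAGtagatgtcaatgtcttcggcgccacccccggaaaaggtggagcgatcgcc
Cox6a1: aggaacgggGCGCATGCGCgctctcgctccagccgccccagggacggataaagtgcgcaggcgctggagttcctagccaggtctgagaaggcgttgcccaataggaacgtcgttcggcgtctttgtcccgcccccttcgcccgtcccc
Atp5f1e: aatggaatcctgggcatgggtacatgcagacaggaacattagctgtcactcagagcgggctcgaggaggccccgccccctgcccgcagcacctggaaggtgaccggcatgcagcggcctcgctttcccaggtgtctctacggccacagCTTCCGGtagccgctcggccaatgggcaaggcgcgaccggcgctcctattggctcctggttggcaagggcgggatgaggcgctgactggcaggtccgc

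Complex I takes electrons from NADH. Of its 36 tested nuclear members 33 had a negative and 3 a positive log2 fold change, with a median of −0.19 and of −0.02 without PBS 5. The smallest p of the complex belonged to Ndufa9, an accessory subunit at the joint of the matrix and membrane arms. Its levels in CPM, counts scaled to a common library size, were 102, 112, 96.8, 111 and 157 in PBS 1 to 5, and 94.6, 94.4, 101, 83.6 and 79.8 CPM in SLR14 1 to 5. Only SLR14 3 reached above the lowest PBS tumour, so the groups overlapped narrowly. The log2 fold change was −0.35 ± 0.13 (SE; edgeR adjusted p = 0.327), and −0.23 without PBS 5 (edgeR adjusted p = 0.268). Ndufb3, an accessory subunit of the membrane arm, averaged 78.6 ± 29.6 CPM in the PBS group and 58.0 ± 6.21 CPM in the SLR14 group (SD, n = 5 each), and 65.7 CPM in PBS without PBS 5. Ndufa2, a small accessory subunit and the nuclear member of this complex with the highest level per length (126 CPM per kilobase of exon), was at 73.0 ± 19.8 CPM in the PBS group and 71.0 ± 3.72 CPM in the SLR14 group. Its log2 fold change was −0.04, and 0.13 without PBS 5. With the longest transcript as length, Ndufa7 at 153 and Ndufb9 at 149.9 CPM per kilobase stood above it.

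Complex II, succinate dehydrogenase, joins the tricarboxylic acid cycle to the chain. Its 4 genes lay between 45.8 (Sdhc) and 52.5 (Sdhb) CPM per kilobase of exon, and between 46.9 and 95.3 CPM per kilobase with the longest transcript as length. Sdhc, a membrane anchor, was the only member of the 89 with no overlap between the groups: all SLR14 tumours lay below all PBS tumours, as they did for 1.32% of all genes. It stood at 146, 156, 142, 144 and 214 CPM in PBS 1 to 5 and at 136, 138, 140, 140 and 132 CPM in SLR14 1 to 5. The gap between the groups was small beside the height of PBS 5. The log2 fold change was −0.22 ± 0.12 (SE; edgeR adjusted p = 0.512), and −0.10 without PBS 5. Sdha, the flavoprotein that oxidises succinate, went the other way in PBS 5, which was its lowest tumour at 159 CPM where the others were at 180 to 218 CPM. Its log2 fold change was −0.03. Sdhb, the iron-sulphur subunit, was at 118 ± 24.0 CPM in the PBS group and 117 ± 7.18 CPM in the SLR14 group (SD, n = 5 each). Sdhd, the other anchor, was at 65.5 ± 19.6 CPM and 56.3 ± 3.16 CPM, and at 56.8 CPM in PBS without PBS 5.

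Complex III hands electrons from ubiquinol to cytochrome c. All 8 nuclear members had a negative log2 fold change, with a median of −0.18 that became −0.02 without PBS 5, and all 8 were highest in PBS 5. Uqcrc2, a large core protein, had the smallest p, with 119, 132, 119, 108 and 216 CPM in PBS 1 to 5 and 113, 117, 112, 97.1 and 99.7 CPM in SLR14 1 to 5. The groups overlapped, and PBS 5 was higher than any other tumour by a wide margin. Its log2 fold change was −0.37 ± 0.17 (SE; edgeR adjusted p = 0.452), and −0.15 without PBS 5. Uqcrq, a small subunit with the highest level per length among the nuclear members of this complex (103 CPM per kilobase), was at 205 ± 74.3 CPM in the PBS group and 171 ± 15.2 CPM in the SLR14 group, and at 172 CPM in PBS without PBS 5.

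Complex IV, cytochrome c oxidase, reduces oxygen. Of its 16 tested nuclear members 15 had a negative log2 fold change, with a median of −0.19 and −0.01 without PBS 5. Ndufa4, named for complex I but now counted with complex IV, had the smallest p of all members. Its levels were 56.8, 61.6, 68.5, 58.7 and 99.2 CPM in PBS 1 to 5, and 53.4, 49.7, 50.3, 49.8 and 58.5 CPM in SLR14 1 to 5. Only SLR14 5 lay among the PBS tumours. The log2 fold change was −0.40 ± 0.14 (SE; edgeR adjusted p = 0.314), and it was −0.23 without PBS 5 (edgeR adjusted p = 0.206). Cox4i1, the common form of a regulatory subunit that binds ATP, had the highest level per length of all nuclear members at 365 CPM per kilobase of exon (739 when the longest transcript is taken as its length). It averaged 611 ± 212 CPM in the PBS group and 520 ± 26.3 CPM in the SLR14 group (SD, n = 5 each), and 516 ± 32.6 CPM in PBS without PBS 5. Cox7a2l, which takes part in joining complexes III and IV, was at 86.3 ± 12.7 CPM and 82.6 ± 4.76 CPM.

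Several complex IV subunits have tissue forms, and the tumours held mostly the common ones. Taken per kilobase of exon, Cox4i2, the form known from lung and from low oxygen, made up 0.375 ± 0.206% of the 2 Cox4i genes in the PBS and 0.26 ± 0.0744% in the SLR14 group (SD, n = 5 each). By the longest transcript these shares were 0.199% and 0.138%. Cox4i2 itself was at 0.557, 1.08, 1.66, 1.2 and 0.774 CPM in PBS 1 to 5 and at 0.656, 0.774, 0.431, 0.968 and 0.613 CPM in SLR14 1 to 5. The groups overlapped. Its log2 fold change, −0.65 ± 0.33 (SE; edgeR adjusted p = 0.504), was the most negative of all members, and it was −0.74 without PBS 5. Of 8 fibroblast and pericyte markers 1 passed the test, where 0.963% of all tested genes did. It was Rgs5, from 80.6 ± 6.2 CPM in PBS to 41.5 ± 8.24 CPM in SLR14 tumours (edgeR adjusted p = 0.00315). The summed level of the 8 was 916 to 3466 CPM in PBS and 550 to 1584 CPM in SLR14 tumours, none was at 0 in all tumours, and the part of these cells in the Cox4i2 values was not tested. Ndufa4l2, a paralog of Ndufa4 known as a gene of the low-oxygen response, made up 5.99 ± 1.54% of that pair in PBS and 7.13 ± 1.73% in SLR14 tumours. It was at 3.36 ± 0.583 CPM and 3.17 ± 0.72 CPM.

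The heart and muscle forms Cox6a2, Cox7a1 and Cox8b were scarce, with Cox6a2 at 0.88 ± 0.28% and Cox7a1 at 8.54 ± 2.19% of their pairs in PBS tumours and at 0.679 ± 0.296% and 8.49 ± 2.28% in SLR14 tumours. Cox8b had 0, 12, 15, 2 and 17 counts in PBS 1 to 5 and 9, 0, 4, 6 and 2 counts in SLR14 1 to 5. A count of 0 allows up to 0.104 CPM in PBS 1 and 0.178 CPM in SLR14 2 (3 counts, counting error only). The summed level of 14 skeletal muscle markers was 44.9, 142, 286, 83.7 and 246 CPM in PBS 1 to 5 and 215, 3.99, 213, 279 and 126 CPM in SLR14 1 to 5. The tumours without a Cox8b count were those with the least muscle marker signal. Cox6a2 was also lowest in SLR14 2, at 0.357 CPM, and highest in PBS 5, at 2.21 CPM. None of the 14 markers was at 0 in all tumours, and the part of muscle tissue in these values was not tested. Cox7a1, in contrast with the other muscle forms, was at 1.61 CPM in SLR14 2, within the 1.31 to 2.39 CPM of the SLR14 group, and at 5.15 CPM in PBS 5. Cox6b2, known from testis, had 69 counts over all 10 tumours. The common forms stood at 136 ± 34.8 and 138 ± 17.5 CPM for Cox6a1, 104 ± 27.9 and 91.3 ± 6.37 CPM for Cox6b1, 45.3 ± 12.4 and 38.0 ± 1.94 CPM for Cox7a2, and 75.5 ± 15.8 and 72.4 ± 9.25 CPM for Cox8a, in PBS and SLR14 tumours in turn.

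Complex V makes ATP. Of its 18 nuclear members 16 had a negative and 2 a positive log2 fold change, with a median of −0.16, and of −0.02 without PBS 5. Atp5if1, the inhibitor that stops the synthase from running backwards, had the smallest p. It stood at 41.6, 45.4, 45.5, 38.2 and 73.5 CPM in PBS 1 to 5 and at 39.5, 37.8, 37.0, 41.4 and 35.0 CPM in SLR14 1 to 5. PBS 4 lay among the SLR14 tumours, so the groups overlapped. The log2 fold change was −0.36 ± 0.15 (SE; edgeR adjusted p = 0.432), and −0.17 without PBS 5. Atp5f1b, the catalytic beta subunit, was the highest of this complex per length, at 272 CPM per kilobase (601 by the longest transcript), with 1210 ± 142 CPM in the PBS group and 1093 ± 49.5 CPM in the SLR14 group (SD, n = 5 each). The membrane ring of subunit c is encoded by 3 genes whose mature proteins are the same. Atp5mc1, Atp5mc2 and Atp5mc3 made up 8.6 ± 0.762%, 47.0 ± 2.26% and 44.4 ± 2.51% of their sum per kilobase in PBS tumours and 9.45 ± 0.6%, 46.3 ± 2.13% and 44.3 ± 2.57% in SLR14 tumours. With the longest transcript as length the share of Atp5mc1 was 3.97% in PBS tumours. Their shares in PBS 5 lay within the range of the other tumours, although Atp5mc3 itself was highest there, at 245 CPM.

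The mt- genes varied more between tumours than the nuclear ones. Their median coefficient of variation over the 9 tumours other than PBS 5 was 23.3%, against 9.1% for nuclear members and 13.1% for all tested genes. As a share of all counts, the mt- members took 0.418, 0.498, 0.28, 0.441 and 0.161% in PBS 1 to 5 and 0.55, 0.531, 0.378, 0.332 and 0.389% in SLR14 1 to 5. The groups overlapped, at 0.36 ± 0.137% and 0.436 ± 0.0976% (SD, n = 5 each), and at 0.409 ± 0.0927% in PBS without PBS 5. Per length, mt-Co1 stood at 1134 CPM per kilobase, above every other member, followed by mt-Cytb at 458, mt-Nd6 at 420, mt-Nd2 at 404, mt-Nd1 at 389, mt-Nd5 at 319 and mt-Nd4 at 104 CPM per kilobase.

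**Figure D4:**
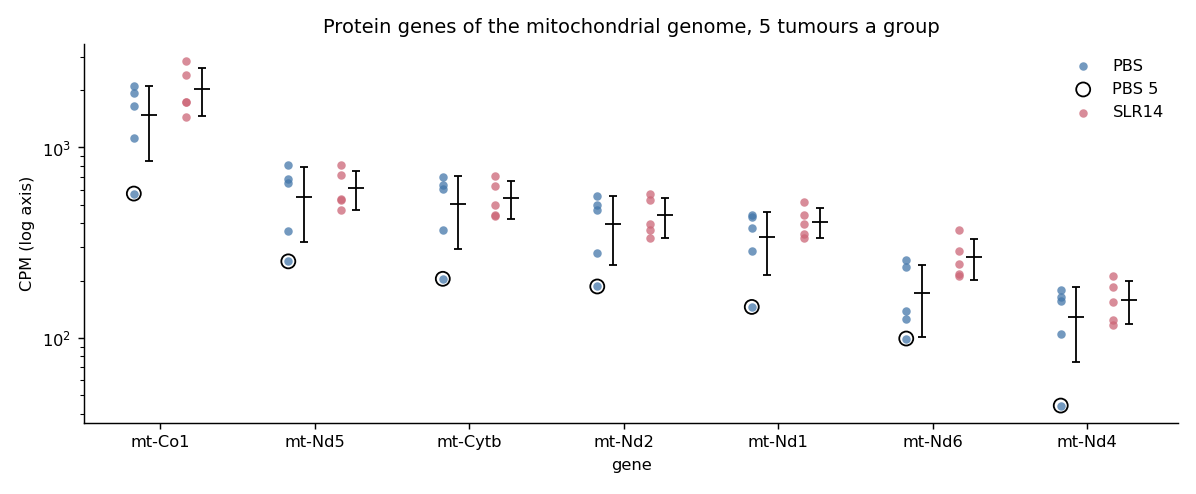
CPM of the 7 mt- members on a log axis, 5 PBS tumours (blue) and 5 SLR14 tumours (red) for each gene; black marks are the mean and SD and black rings mark PBS 5. PBS 5 is the lowest of the 10 tumours for every gene, and the groups overlap for every gene, mt-Nd6 included, where SLR14 tumours lie between 211 and 368 CPM and PBS tumours between 99.3 and 256 CPM.

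mt-Co1, the catalytic core of complex IV, was at 1650, 2111, 1123, 1922 and 573 CPM in PBS 1 to 5 and at 2393, 2838, 1724, 1450 and 1740 CPM in SLR14 1 to 5. SLR14 1 and 2 were above all PBS tumours, and the other 3 lay within the PBS range. The log2 fold change was 0.46 ± 0.29 (SE; edgeR adjusted p = 0.593), and 0.25 without PBS 5. mt-Cytb, the electron-carrying core of complex III, was at 609, 696, 368, 637 and 204 CPM in PBS 1 to 5 and at 629, 712, 441, 438 and 502 CPM in SLR14 1 to 5. Its groups overlapped widely, with a log2 fold change of 0.11 that became −0.09 without PBS 5. mt-Nd6, a membrane subunit of complex I and the protein gene that lies on the opposite strand from all other protein genes of the mitochondrial genome, had the most positive fold change of the members. Its levels were 237, 256, 126, 138 and 99.3 CPM in PBS 1 to 5 and 368, 217, 287, 244 and 211 CPM in SLR14 1 to 5. The 3 lowest tumours were PBS 3, 4 and 5. The log2 fold change was 0.63 ± 0.25 (SE; 95% interval 0.09 to 1.17; edgeR adjusted p = 0.379), and 0.48 without PBS 5 (edgeR adjusted p = 0.424). Whether strand was used in counting is not stated in the labels, and reads of mt-Nd6 and of transcripts opposite to it cannot be told apart. mt-Nd4, the lowest mt- member per length, was at 130 ± 55.1 CPM in the PBS group and 158 ± 39.7 CPM in the SLR14 group.

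The balance between messengers within the mt- set was described by their ratios. Of the 21 ratios between 2 mt- members, 2 had groups that did not overlap, both with mt-Co1, where 0.723% of the 3321 ratios between 2 nuclear members did. These ratios were looked at after the values had been seen and were not tested. Counts of mt-Co1 per count of mt-Cytb, corrected for library size, were 2.71, 3.03, 3.05, 3.02 and 2.80 in PBS 1 to 5 and 3.81, 3.98, 3.91, 3.31 and 3.47 in SLR14 1 to 5. Every SLR14 tumour was above every PBS tumour, and PBS 5, with the lowest mt- level, lay within the PBS range. The means were 2.92 ± 0.155 and 3.70 ± 0.292 (SD, n = 5 each). Counts of mt-Nd2, a complex I membrane subunit, per count of mt-Co1 were 0.276 ± 0.03 in the PBS and 0.22 ± 0.02 in the SLR14 group. Here PBS 5 was the highest tumour at 0.325, with the other PBS tumours at 0.25 to 0.283. SLR14 tumours were at 0.187 to 0.239, so the gap was narrow, and the groups stayed apart without PBS 5. As shares of the counts of the 7 mt- members, mt-Cytb held 13.6 to 14.7% in PBS and 11.5 to 12.9% in SLR14 tumours, mt-Nd2 10.6 to 12.4% and 9.38 to 10.5%, and mt-Co1, whose groups overlapped, 38.1 to 42.8% and 42.7 to 50.1%. All 7 share the depth and the capture of their tumour, so these 21 ratios are not independent of each other.

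**Figure D5:**
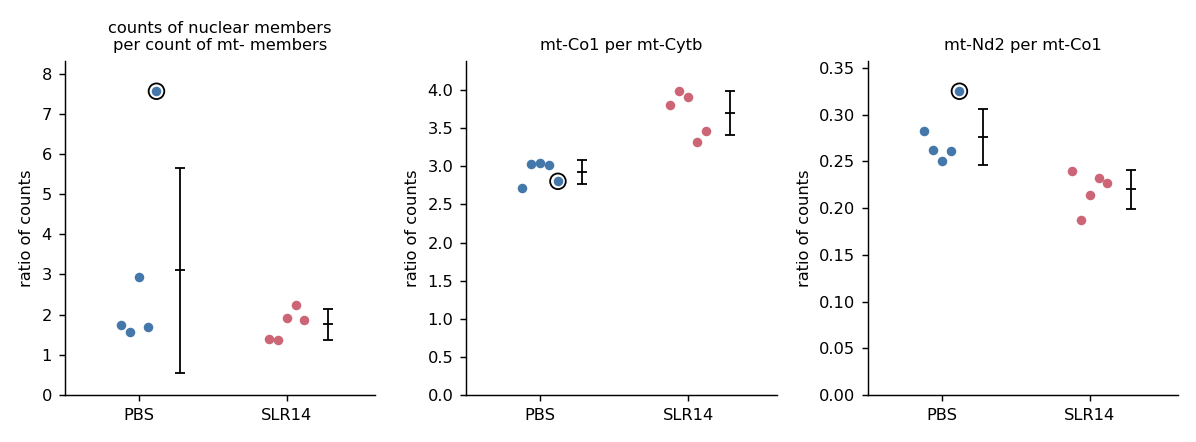
Ratios of counts by tumour, 5 PBS (blue) and 5 SLR14 (red) tumours in each panel, with mean and SD in black and PBS 5 ringed: nuclear per mt- members (left), mt-Co1 per mt-Cytb (middle) and mt-Nd2 per mt-Co1 (right), all axes from 0. The groups overlap on the left, where PBS 5 is at 7.56, and are separate in the middle (PBS 2.71 to 3.05, SLR14 3.31 to 3.98) and on the right.

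Genes that serve the complexes also gave few calls. Over all tested genes 0.963% were called, so 0 calls in lists of this size lie near that share. Of 19 further subunits and carriers of the chain, 18 were tested and 0 passed, with a median log2 fold change of −0.09, and −0.04 without PBS 5. The smallest p values there were those of Etfa and Etfb, the electron transfer flavoprotein, at −0.29 and −0.46, and at −0.15 and −0.31 without PBS 5. In the assembly factor lists 0 of 17 for complex I, 0 of 13 for complexes II and III, 0 of 26 for complex IV and 0 of 6 for ATP synthase passed, with medians of −0.13, −0.15, −0.09 and −0.14. Without PBS 5 these medians were −0.04, −0.04, −0.04 and 0.03, the last with 4 of 6 positive. Bcs1l, which inserts the iron-sulphur protein into complex III, was nearest to the threshold, from 26.0 ± 4.67 to 20.0 ± 0.696 CPM (SD, n = 5 each; edgeR adjusted p = 0.208). It was at 21.9, 23.7, 28.2, 23.0 and 33.2 CPM in PBS 1 to 5 and at 20.7, 18.8, 20.1, 20.0 and 20.2 CPM in SLR14 1 to 5, so that no SLR14 tumour reached the lowest PBS tumour. Ndufaf6 and Ndufaf7 had log2 fold changes of −0.65 and −0.28, Uqcc6 −0.23, and Cox18 and Higd2a 0.26 and −0.23. Tmem242 and Atpaf1 were at −0.22 and −0.13, and at 0.04 and −0.02 without PBS 5. Ndufaf6, Uqcc6 and Higd2a were then at −0.41, −0.12 and −0.13.

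None of 26 genes of mitochondrial DNA upkeep, transcription and RNA handling passed (Fastkd2 at −0.32 and Mterf1a at −0.37 had the smallest p, and were at −0.14 and −0.20 without PBS 5), nor did any of 13 regulators, where Ppargc1a, the coactivator PGC-1 alpha, was at 3.70 ± 1.25 CPM in the PBS group and 2.70 ± 0.656 CPM in the SLR14 group and Epas1 had a log2 fold change of −0.55. The mitochondrial ribosome had 0 of 77 called and a median of −0.11 (Mrps11 −0.28, Mrpl50 −0.31), which became 0.02 without PBS 5 (Mrps11 −0.19, Mrpl50 −0.17). The cytosolic ribosome had 0 of 89 called (Rps23rg1 −0.70, Rpl21 −0.31, the latter −0.19 without PBS 5). Among the pathways that feed or bypass the chain, 0 of 24 tricarboxylic acid cycle genes (Suclg2 −0.20, Pdhb −0.16) and 0 of 19 glycolysis rows passed. All 19 glycolysis rows had a positive log2 fold change, with a median of 0.20, where 48% of all tested genes were positive. Without PBS 5 the median was 0.16 and 16 of 19 were positive. The summed level of the list overlapped between groups, at 10044 to 19572 CPM in PBS and 14154 to 23617 CPM in SLR14 tumours. Its lowest tumour was PBS 3 and its highest SLR14 2. Slc16a3, the lactate exporter MCT4, was at 0.68 (edgeR adjusted p = 0.418) and Eno1 at 0.35. Of 19 genes of the low-oxygen response 0 passed (Vegfa 0.18 and 0.09 without PBS 5, P4ha1 0.15). A last list, of uncoupling proteins, carriers and interferon-linked mitochondrial genes, had 2 of 15 called, both higher, against 0.963% of all tested genes. Cmpk2, a mitochondrial nucleotide kinase induced by interferon, rose from 11.6 ± 1.54 to 27.7 ± 5.41 CPM (1.26 ± 0.15 SE on the log2 scale, edgeR adjusted p = 0.000786), and Acod1, the itaconate-making enzyme of myeloid cells, rose from 0.69 ± 0.539 to 3.74 ± 1.21 CPM (2.41 ± 0.45 SE on the log2 scale, edgeR adjusted p = 0.0238). The call of Acod1 was lost with the replicate block (edgeR adjusted p = 0.0705) and without any 1 of PBS 1, PBS 4, SLR14 1 or SLR14 3 (edgeR adjusted p 0.0507 to 0.0736).

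Taken as a sum, markers of tumour identity were present in all 10 tumours. The summed level of 9 epithelial and kidney tubule markers was 2681 to 3241 CPM in PBS and 2749 to 3335 CPM in SLR14 tumours. Of the 9, 5 had a positive log2 fold change and 4 a negative one. Epcam, with a PBS mean of 3.45 CPM, was lower after SLR14 by the test. Cdh16 missed the threshold (edgeR adjusted p = 0.0788), yet its groups did not overlap. It ranged from 315 to 409 CPM in the PBS group and from 187 to 294 CPM in the SLR14 group. Its log2 fold change was −0.52, and −0.56 without PBS 5, where it passed (edgeR adjusted p = 0.0359). Neutrophil markers had 3 of 5 called, all higher in SLR14 tumours, where 0.963% of all tested genes were called. Their sums were 10.9 to 15.8 CPM in PBS and 16.6 to 49.4 CPM in SLR14 tumours. The part of such shifts in the members' values was not tested.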

How the data were processed

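RNA sequencing of 10 RENCA tumours, 5 PBS and 5 SLR14, was analysed from 2 tables deposited by the authors. The first holds raw counts per gene. The second, as deposited, holds a normalized signal: the authors divided each tumour's counts by a single factor, as the values show. Per the labels' protocols, ribosomal RNA was depleted and poly(A) RNA enriched. The submitters' processing notes name STAR, Trim Galore 0.6.7, the mm39 build and DESeq2 1.36.0. How reads were counted, with what annotation and strand setting, is not stated in the labels. Overlapping and antisense genes, pseudogene copies and nuclear copies of mitochondrial DNA are therefore uncertain.

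Groups came from the sample titles, with no covariate. Genes were filtered with filterByExpr (minimum count 10), scaled by TMM and tested with edgeR 4.0.16's quasi-likelihood test in R 4.3.3, over all 15883 genes with Benjamini-Hochberg adjustment and a threshold of 0.05. Levels are CPM with TMM factors; levels per kilobase use exon lengths of GENCODE M21 (GRCm38). Alternatives used DESeq2 1.42.0, limma 3.58.1, other scalings and filters, left-out tumours, and the signal values with a pseudocount of 1. Total counts were 17931895 to 39842608 per tumour. Intervals at 0 counts cover counting error only.

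Members and lists were chosen with earlier results of these data known, so no list was tested as such. Named genes were those with the smallest p and the highest level per length in each complex and genome, the isoform genes, the Sdh and mt- genes, members without overlap between groups, and 2 genes of each list with the smallest p. The mice were separate animals per the labels' design text.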

Additional observations from a re-analysis of the deposited data

Results flagged for a closer look

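Within each group of 5 tumours, 55 values of the members were checked for a tumour far from the others by Dixon's test, which chance passes for about 1 group in 20. Of 24 such values 23 lay in PBS 5. The values were not independent: levels within a tumour move together, and the group levels and shares hold the same genes. Some genes were also named for their small p. The 23 values are therefore not separate findings, and their number cannot be set against the rate of 1 in 20. In that tumour Ndufa9 stood at 157 CPM, Ndufa2 at 107 CPM, Ndufb3 at 131 CPM, Sdhc at 214 CPM, Sdhd at 100 CPM, Uqcrc2 at 216 CPM, Uqcrq at 337 CPM, Ndufa4 at 99.2 CPM and Cox4i1 at 987 CPM. Cox6b1 was at 153 CPM, Cox7a1 at 5.15 CPM, Cox7a2 at 66.6 CPM, Atp5if1 at 73.5 CPM, Atp5f1b at 1456 CPM and Atp5mc3 at 245 CPM. Each was above the other 4 PBS tumours by most of the group's range.

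Group levels of PBS 5 showed the same. Relative to each gene's median over the 10 tumours, the nuclear members had a median level of 1.54, complex I 1.54, complex II 1.45, complex III 1.75, complex IV 1.61 and complex V 1.53. The nuclear members took 1.22% of its counts, and it held 7.56 nuclear counts per mt- count. The remaining value was Sdhb in SLR14 5, at 130 CPM above the other SLR14 tumours.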

How the results depend on the processing

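No member was called under any of the 21 alternatives. The nuclear median log2 fold change was −0.22 to −0.04 under other scalings, filters and tools, −0.15 with the replicate block, −0.22 to −0.02 leaving out 1 tumour at a time, and −0.03 without PBS 5 and SLR14 2. The mt- median was 0.02 to 0.37 under other tools, 0.36 with the replicate block, 0.06 to 0.39 leaving out 1 tumour, and −0.06 without PBS 5 and SLR14 2. Same-numbered tumours showed no clear shared deviation (correlations −0.203 to 0.109). The titles do not say that the numbers pair mice, and such correlations cannot exclude a weak shared effect.

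Of 32 members named with a fold change, 13 changed sign in 44 of 671 values, none past a threshold, 9 of them when PBS 5 was left out; signs were read at 2 decimals, and a value that rounds to 0, such as Cox4i1 without PBS 5, was not counted. With limma voom quality weights the log2 fold changes were Ndufa2 0.15, Sdhb 0.12, Cox6a2 0.01, Cox7a1 0.12, Cox8a 0.05, Atp5mc1 0.10, mt-Nd2 −0.07, mt-Nd5 −0.06 and mt-Cytb −0.14. Without PBS 5 and SLR14 2 they were Ndufa2 0.11, Sdhb 0.12, Cox6a2 0.11, Cox7a1 0.14, Atp5mc1 0.08, mt-Nd2 −0.11, mt-Nd4 −0.06, mt-Nd5 −0.10 and mt-Cytb −0.21. Sdhb and Atp5mc1 were both 0.01 with the replicate block, 0.01 with limma voom and 0.02 on the deposited normalized values, and Cox6a1 was −0.03 with upper-quartile factors. Tmem242 was 0.03 with quality weights and 0.05 without both tumours.

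Leaving out 1 tumour at a time gave lowest and highest values of −0.11 and 0.13 for Ndufa2, −0.10 and 0.01 for Sdha, −0.08 and 0.11 for Sdhb, −0.05 and 0.18 for Cox6a1, −0.62 and −0.06 for Cox6a2, −0.47 and 0.08 for Cox7a1, −0.11 and 0.01 for Cox7a2l, −0.14 and 0.02 for Cox8a, −0.08 and 0.08 for Atp5mc1, −0.04 and 0.30 for mt-Nd2, 0.06 and 0.43 for mt-Nd4, −0.04 and 0.33 for mt-Nd5, −0.09 and 0.26 for mt-Cytb, −0.29 and 0.04 for Tmem242, and 2.15 and 2.96 for Acod1.

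Acod1 lost its call with the replicate block (log2 fold change 2.55, edgeR adjusted p = 0.0705) and without any 1 of PBS 1, PBS 4, SLR14 1 or SLR14 3; the cause was not tested, beyond the smaller number of samples. With the longest transcript as length, the mean share of Atp5mc1 in the c-subunit genes became 4.17% and that of Atp5mc3 49.8%, and Cox4i1, Atp5f1b and Atp5f1a moved to 739, 601 and 178 CPM per kilobase. The difference of group means in mt-Co1 per mt-Cytb was 0.774, 0.702 to 0.87 leaving out 1 tumour and 0.672 without PBS 5 and SLR14 2, a check chosen after seeing the data; for mt-Nd2 per mt-Co1 it was −0.0564, −0.063 to −0.0443 and −0.036. Depth limits Cox6b2, Cox8b and Ndufb4c, with 55 to 69 counts each over 10 tumours.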
